A study of Homo sapiens with 6 samples.

Results

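The 10 genes described here run the synthesis, acetylation, oxidation and antizyme control of polyamines, and were taken by symbol from a table of 58735 annotated features. They are ODC1, AMD1, SRM and SMS (synthesis), SAT1, SMOX and PAOX (acetylation and oxidation), and OAZ1, OAZ2 and AZIN1 (the antizyme system). All 10 passed the filter on low counts and were among the 16210 genes tested. RNA sequencing compared cells labelled BE(2)-C, a line from a neuroblastoma, after lentiviral infection with a non-silencing hairpin (NS, genotype given as wild type, n = 3 libraries) or with a hairpin against ACSS2 (shACSS2, genotype given as ACSS2 deficiency, n = 3 libraries). Both were stable lines kept under puromycin and grown in DMEM with antibiotics and calf serum, with no further treatment. The titles call the knockdown siACSS2 and the treatment text in 1 place calls the line shNgBR, so the reagent is named inconsistently. The labels do not say how many clones each line holds or whether the libraries came from separate cultures, and p-values therefore measure the spread between these libraries, which may be technical.

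Polyamines (putrescine, spermidine and spermine) are small cations that bind RNA and DNA and are needed for growth. ODC1 makes putrescine from ornithine. SRM and SMS then add aminopropyl groups, supplied by AMD1, to give spermidine and spermine. SAT1 acetylates spermidine and spermine with acetyl-CoA, which marks them for export or for oxidation by PAOX, and SMOX oxidises spermine directly. Antizymes bind ODC1 and deliver it to the proteasome, and AZIN1, a relative of ODC1 without its activity, takes antizyme away. ODC1 is a classic MYC target and a drug target in neuroblastoma, and ACSS2, the gene that was depleted, makes acetyl-CoA from acetate.

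ACSS2 stood at 20.8, 20.5 and 20.2 CPM (counts scaled to a common library size, adjusted with TMM composition factors as are all CPM below unless stated) in NS replicates 1 to 3 and at 4.67, 5.14 and 6.16 CPM in shACSS2 replicates 1 to 3. It fell by 1.94 on the log2 scale (adjusted p = 1.95e-06 by edgeR), which checks the labels. Library totals ran from 16617885 to 20831599 counts. Of 15 listed sympathoadrenal neuroblastoma markers, PHOX2A, TFAP2B and TH had 0 counts in every library, which allows at most 0.144 to 0.181 CPM per library (3 counts, counting error only), and 2 (GATA3 and ISL1) had a mean of at least 5 CPM. Their summed level was 41.9 to 46.7 CPM in NS and 42.5 to 49.9 CPM in shACSS2 before composition factors. Of 5 embryonic kidney markers 4 had at least 5 CPM, with a summed level of 701 to 832 CPM in NS and 648 to 727 CPM in shACSS2, and IRS4 alone stood at 563 to 729 CPM. Of 5 mesenchymal or Schwann-like markers 1 (PRRX1) did, with sums of 6.24 to 7.54 and 6.73 to 7.76 CPM. The markers thus go against the label in both groups, and the comparison is between libraries labelled BE(2)-C. In shACSS2 replicate 1, the departure from the group mean followed GC content across genes with a rank correlation (Spearman) of -0.603, where shACSS2 replicate 2 had 0.475 and replicate 3 had 0.388 (genes are not independent replicates). Mitochondrial genes took 1.252% to 2.201% of counts in NS and 0.692% to 0.776% in shACSS2. Without these genes 4 members were called higher, as were 1213 of the 16188 genes then tested. Results with a GC correction or without shACSS2 replicate 1 stand beside several of the genes below. In bulk RNA, a change in the share of cells that express a gene and a change per cell cannot be told apart.

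Of the 10 polyamine genes, 4 rose and 0 fell in shACSS2. SAT1 rose by 1.91-fold, ODC1 by 1.55-fold, AZIN1 by 1.33-fold and SRM by 1.24-fold, at an adjusted p under 0.05 (quasi-likelihood test of edgeR, with Benjamini-Hochberg adjustment over 16210 genes). Among all genes tested, 17.1% were called, 7.48% higher and 9.64% lower. At an unadjusted p under 0.05 the members counted 7 higher and 0 lower, against 15.9% and 16.8% of all genes. DESeq2 called 5 members higher and 0 lower, against 9.54% and 9.56% of all genes with an adjusted p, and voom called 5 and 0, against 7.45% and 9.64%. The median log2 fold change (shACSS2 over NS) was 0.25 over the 10 members and 0.00 over all genes tested, and the members ran from -0.25 (PAOX) to 0.93 (SAT1). In 7 of the 10 members every shACSS2 library lay above every NS library, against 17.6% of all genes tested, and in 0 below (36.3% of all genes had groups apart in either direction). The count of members called higher was 2 without NS replicate 1 or without NS replicate 3, 6 without shACSS2 replicate 1, and 7 with a correction for GC content and gene length. The count over all genes moved with it, at 310 of 16556 and 363 of 16485 without NS replicates 1 and 3. It was 1837 of 16736 without shACSS2 replicate 1 and 2778 of 16201 with that correction, against 1213 of 16210 as reported. SAT1 and ODC1 were called under each of the 18 alternatives that were run, while AZIN1 and SRM were not. The plot of members by library shows the values behind these counts.

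**Figure D1:**
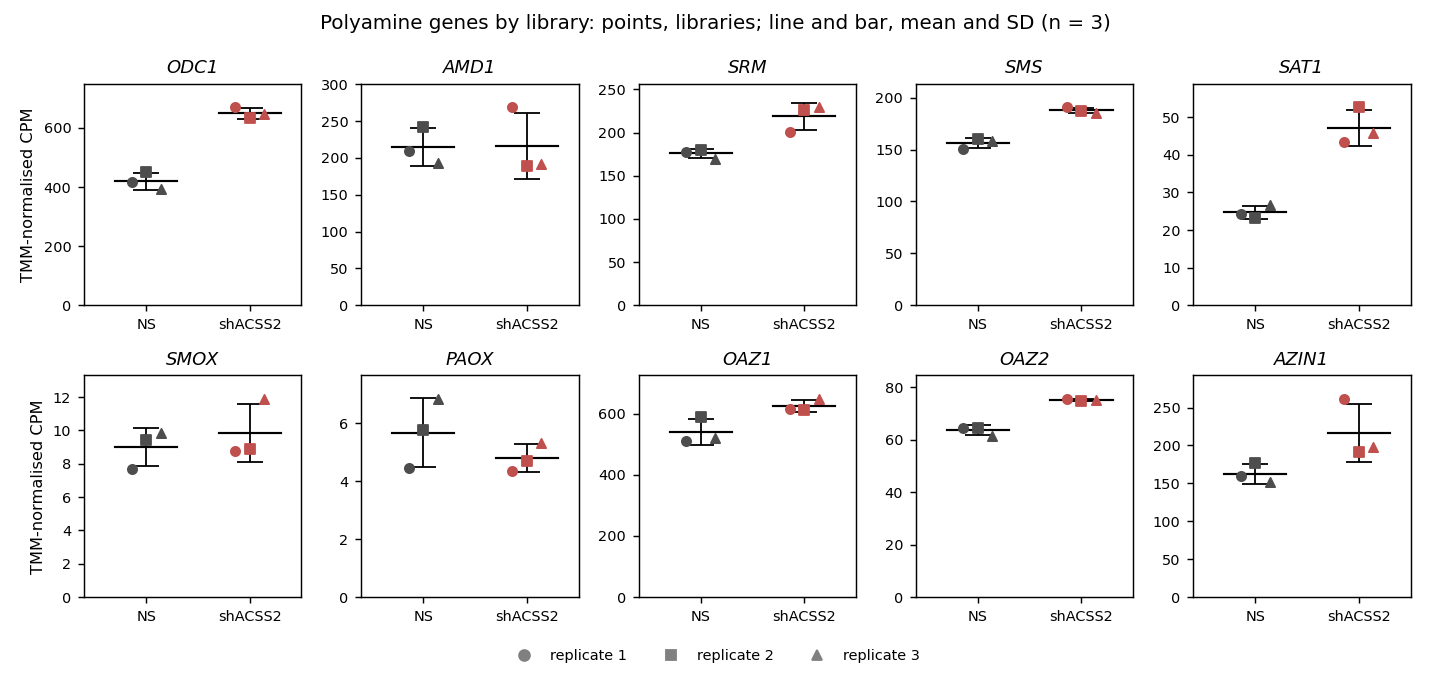
TMM-normalised CPM (vertical axes, each from 0) of the 10 polyamine genes in 3 NS and 3 shACSS2 libraries. Symbols are replicates and the line and bar are the mean and SD. In ODC1 and SAT1 the groups lie far apart, whereas in AMD1, SMOX and PAOX they overlap.

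Of the 4 enzymes of synthesis, ODC1 and SRM rose, and SMS and AMD1 did not pass the test. ODC1 (ENSG00000115758, chromosome 2, 10439968 to 10448504, minus strand, GRCh38), the enzyme that commits ornithine to the pathway, had 418, 450 and 393 CPM in NS and 670, 633 and 646 CPM in shACSS2. The lowest shACSS2 library exceeded the highest NS library by more than the whole range of either group. The level rose from 420 ± 28.8 to 650 ± 18.6 CPM (SD, n = 3 each), a log2 change of 0.63 ± 0.0908 (SE, adjusted p = 0.000418 by edgeR). SRM, spermidine synthase (ENSG00000116649, chromosome 1, 11054584 to 11060024, minus strand), had 177, 180 and 170 CPM in NS and 201, 227 and 229 CPM in shACSS2. Here the groups did not overlap, but shACSS2 replicate 1 stood nearer to NS than the other shACSS2 libraries. The level rose from 176 ± 5.35 to 219 ± 15.7 CPM (SD, n = 3 each), a log2 change of 0.32 ± 0.0926 (SE, adjusted p = 0.0287 by edgeR). This call was lost without NS replicate 1 (0.32, edgeR adjusted p = 0.123), NS replicate 3 (0.29, 0.126), shACSS2 replicate 2 (0.29, 0.0934) or shACSS2 replicate 3 (0.28, 0.11), and with scaling by library totals alone (0.24, 0.0743).

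SMS, spermine synthase (ENSG00000102172, chromosome X, 21940573 to 21994835, plus strand), had 150, 161 and 158 CPM in NS and 191, 187 and 185 CPM in shACSS2. Each shACSS2 library was above each NS library, with little spread in either group. Its log2 fold change of 0.26 (SE 0.0882) had an edgeR adjusted p of 0.0501, just short of the threshold. It was past the threshold with 8 of the 18 alternatives, among them DESeq2 (0.27, adjusted p = 0.0145), voom (0.26, adjusted p = 0.0461) and omission of shACSS2 replicate 1 (0.26, edgeR adjusted p = 0.0141). AMD1, which makes the aminopropyl donor (ENSG00000123505, chromosome 6, 110874770 to 110895713, plus strand), had 209, 242 and 193 CPM in NS and 269, 190 and 191 CPM in shACSS2. The shACSS2 replicates 2 and 3 lay just below the lowest NS library and replicate 1 above the highest. The log2 change was 0.01 ± 0.13 (SE, adjusted p = 0.962 by edgeR), and it was -0.17 without shACSS2 replicate 1 (edgeR adjusted p = 0.176). AMD1 has the lowest GC content of the members, at 37.7% of its longest transcript, and with the correction for GC content and length its log2 fold change was 0.06 (edgeR adjusted p = 0.644).

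Of the members whose start regions could be searched, ODC1 and SRM held CACGTG, the E-box bound by MYC and MAX. RefSeq windows of 250 bases before to 50 after a start (GRCh38.p14) were found for 7 members, 10 windows in all, and AZIN1, SMOX and PAOX were not searched. CACGTG, which reads the same on both strands, was in 1 window of ODC1 and in that of SRM, 2 of the 10 windows, and in 7.26% of all 35116 windows. TGACNNNGC, the core of the antioxidant response element, was searched on both strands and found in the other ODC1 window (13.3% of all windows). TGACTCA, the AP-1 element, was found in OAZ2 (4.95% of all windows), and TGACGTCA, the cAMP response element, in no member window (1.85% of all windows). These are matches of letters and not measured binding. Shown are the stretch of ODC1 that follows the first exon of its long transcript in GENCODE v29, chr2:10447999-10448120, minus strand, the region upstream of SRM, chr1:11060025-11060268, minus strand, and the region upstream of SAT1, chrX:23782923-23783172, plus strand, the member with the largest rise, which held none of the motifs. Capitals mark CACGTG, at 10448036 to 10448041 and 10448002 to 10448007 in ODC1 and at 11060212 to 11060217 in SRM.
ODC1: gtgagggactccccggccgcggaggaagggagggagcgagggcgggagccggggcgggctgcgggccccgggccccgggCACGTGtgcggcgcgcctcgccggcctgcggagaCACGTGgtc
SRM: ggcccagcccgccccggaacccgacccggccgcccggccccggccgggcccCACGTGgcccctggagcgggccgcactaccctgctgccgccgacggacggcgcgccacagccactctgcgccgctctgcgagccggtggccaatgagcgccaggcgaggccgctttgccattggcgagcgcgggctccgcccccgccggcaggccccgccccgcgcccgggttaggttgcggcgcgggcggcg
SAT1: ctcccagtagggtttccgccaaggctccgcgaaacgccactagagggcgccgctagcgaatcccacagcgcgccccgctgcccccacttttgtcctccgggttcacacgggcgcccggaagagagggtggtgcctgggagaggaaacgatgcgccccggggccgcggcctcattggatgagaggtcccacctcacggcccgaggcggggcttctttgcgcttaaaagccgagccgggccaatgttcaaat

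In the branch that breaks polyamines down, SAT1 rose and both oxidases did not pass the test. SAT1 (ENSG00000130066, chromosome X, 23783173 to 23786226, plus strand), the acetyltransferase that uses acetyl-CoA and limits the rate of this branch, had 24.3, 23.3 and 26.7 CPM in NS and 43.5, 52.6 and 45.7 CPM in shACSS2. Every shACSS2 library was far above the highest NS library. The level rose from 24.7 ± 1.77 to 47.3 ± 4.79 CPM (SD, n = 3 each), a log2 change of 0.93 ± 0.113 (SE, adjusted p = 9.77e-05 by edgeR), and from 0.85 to 0.99 over the alternatives. SMOX, spermine oxidase (ENSG00000088826, chromosome 20, 4120980 to 4187747, plus strand), had 7.69, 9.40 and 9.87 CPM in NS and 8.78, 8.87 and 11.9 CPM in shACSS2. The groups overlapped, and the log2 change of 0.13 ± 0.167 (SE, adjusted p = 0.632 by edgeR) was -0.03 without shACSS2 replicate 3. PAOX, the peroxisomal oxidase of acetylated polyamines (ENSG00000148832, chromosome 10, 133379234 to 133391694, plus strand), had 4.44, 5.76 and 6.82 CPM in NS and 4.36, 4.71 and 5.32 CPM in shACSS2. NS libraries covered nearly the whole range of shACSS2, and the log2 change was -0.25 ± 0.199 (SE, adjusted p = 0.419 by edgeR). PAOX rests on 70 to 148 counts per library and SMOX on 135 to 214, and their libraries spread by 10.1% to 21% of the mean within a group (coefficient of variation). The count of SAT1 over that of SMOX in the same library, which no scaling touches, was 3.16, 2.47 and 2.71 in NS and 4.95, 5.94 and 3.85 in shACSS2. This ratio was not corrected for GC content, which was 43.3% in SAT1 and 61% in SMOX.

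Of the antizyme genes, AZIN1 rose, and OAZ1 and OAZ2 did not pass the test although each was higher in every shACSS2 library. OAZ1, the main antizyme (ENSG00000104904, chromosome 19, 2269509 to 2273490, plus strand), had 512, 588 and 520 CPM in NS and 616, 613 and 648 CPM in shACSS2. The shACSS2 libraries were all higher, but NS replicate 2 came close to them. Its log2 change was 0.21 ± 0.0916 (SE, adjusted p = 0.119 by edgeR). OAZ2 (ENSG00000180304, chromosome 15, 64687573 to 64703281, minus strand) had 64.7, 64.7 and 61.4 CPM in NS and 75.5, 74.7 and 75.0 CPM in shACSS2. Its groups were tight and apart, and the log2 change was 0.24 ± 0.0923 (SE, adjusted p = 0.0837 by edgeR). OAZ2 was past the threshold without shACSS2 replicate 1 (0.24, edgeR adjusted p = 0.0334), and with the correction for GC content and length so were OAZ2 (0.31, 0.00365) and OAZ1 (0.25, 0.0429). Antizyme protein depends on a +1 frameshift at the stop codon of a short first reading frame, which polyamines promote, so the RNA level reports only part of antizyme output. In GENCODE v29 transcripts annotated without a coding sequence, the stretch around this site was the same at 28 of 30 bases in OAZ1 (stop at base 289 of OAZ1-209) and OAZ2 (stop at base 243 of OAZ2-209). It is shown because it is the element the counts cannot read, with the last sense codon and the stop codon in capitals.
OAZ1: cggtggtgcTCCTGAtgcccctcacccacc
OAZ2: ctgtggtgcTCCTGAtgcccctcacccact

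AZIN1, the antizyme inhibitor (ENSG00000155096, chromosome 8, 102826357 to 102893864, minus strand), rose. It had 160, 177 and 151 CPM in NS and 261, 191 and 198 CPM in shACSS2. All shACSS2 libraries were higher, and shACSS2 replicate 1 stood well above the other two. The level rose from 163 ± 13.2 to 217 ± 38.7 CPM (SD, n = 3 each), a log2 change of 0.41 ± 0.118 (SE, adjusted p = 0.0265 by edgeR). Without shACSS2 replicate 1 it was 0.26 and still past the test (edgeR adjusted p = 0.0241), and the call was lost without NS replicate 1 (0.39, 0.116) or NS replicate 3 (0.36, 0.125). With the correction for GC content and length it was 0.43 (edgeR adjusted p = 0.00176). AZIN1 and AMD1, with GC contents of 42.3% and 37.7%, deviated most upward in shACSS2 replicate 1, by 0.28 and 0.33 on the log2 scale, and of the 4 members with 61.0% to 63.7% SMOX, SRM and PAOX deviated by -0.14, -0.12 and -0.12 and OAZ1 by -0.02. SAT1, at 43.3% GC, deviated by -0.12.

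Within each library, the count of ODC1 relative to that of OAZ1 was 0.817, 0.766 and 0.755 in NS and 1.09, 1.03 and 0.998 in shACSS2. Every shACSS2 library was above every NS library, with means of 0.779 ± 0.0329 and 1.04 ± 0.045 (SD, n = 3 each). The ratio of AZIN1 to OAZ1 overlapped between groups, at 0.291 to 0.313 in NS and 0.305 to 0.424 in shACSS2. The ratio of SRM to SMS, the consecutive synthases, also overlapped, at 1.08 to 1.18 in NS and 1.05 to 1.24 in shACSS2. Because both genes of a ratio come from 1 library, these values do not depend on the composition factors. They were not corrected for GC content.

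Per kilobase of annotated exon, OAZ1 and ODC1 were the most abundant members and the oxidases the least. In NS, OAZ1 stood at 157 ± 12.2 CPM per kilobase (SD, n = 3) and ODC1 at 142 ± 9.7, and their libraries overlapped. Below them came SRM (92.6 ± 2.82) and SMS (72.3 ± 2.42), each apart from its neighbours. AMD1 (30.5 ± 3.6) and AZIN1 (25.3 ± 2.05) overlapped, and SAT1 (9.90 ± 0.71) lay above OAZ2 (8.29 ± 0.245). SMOX (3.05 ± 0.39) and PAOX (2.49 ± 0.524) overlapped at the bottom. In shACSS2, ODC1 came first at 219 ± 6.26 CPM per kilobase, above OAZ1 at 182 ± 5.59 without overlap, and SAT1 reached 18.9 ± 1.92. The lengths are the summed annotated exons of GENCODE v29, which can exceed the length of the form that is expressed.

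**Figure D2:**
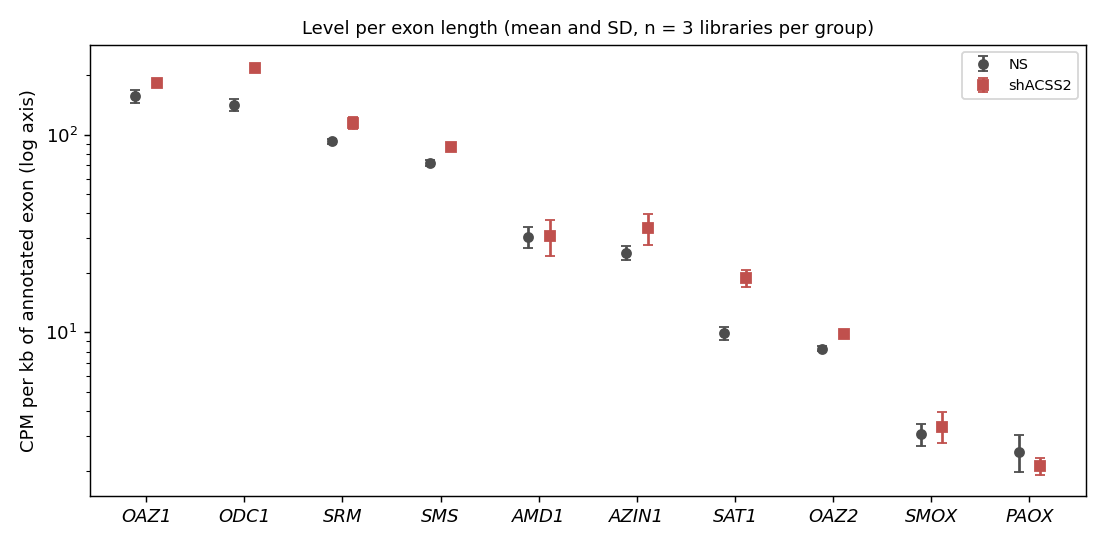
CPM per kilobase of annotated exon (log axis) of the 10 genes in NS (circles) and shACSS2 (squares), as mean and SD over 3 libraries per group, ordered by the NS mean. With these lengths, the mean of ODC1 lies below that of OAZ1 in NS and above it in shACSS2.

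Beyond the members, 35 further genes of polyamine metabolism were listed, of which 29 could be tested. Of these 29, 4 rose and 3 fell, against 7.48% and 9.64% of all genes tested, and 22 were not past the threshold. Their median log2 fold change was 0.15, against 0.00 over all genes tested. Among those that could not be tested, AOC1, ATP13A4, ARG1, SLC22A2 and SLC22A3 had at most 4 counts in a library. In the use of spermidine for hypusine, the modified lysine of the translation factor eIF5A, EIF5A rose from 701 ± 49.1 to 862 ± 27.7 CPM (SD over 3 libraries per group, log2 change 0.30 ± 0.0907 SE, adjusted p = 0.0336 by edgeR). Its paralog EIF5A2 had 12.1, 16.6 and 13.8 CPM in NS and 30.7, 20.4 and 20.9 CPM in shACSS2, with shACSS2 replicate 1 highest (log2 change 0.76 ± 0.165 SE, adjusted p = 0.00625 by edgeR). EIF5A2, at 34.3% GC, had a log2 change of 0.55 without shACSS2 replicate 1 (edgeR adjusted p = 0.00824). With the correction for GC content and length it was 0.80 (edgeR adjusted p = 0.000281). DHPS, the first enzyme of the modification, fell from 2.01 ± 0.11 to 0.838 ± 0.229 CPM (log2 change -1.26 ± 0.331 SE, adjusted p = 0.0175 by edgeR). DHPS had only 11 to 46 counts per library and overlaps a readthrough gene on the same strand, which can take or void its reads, so its value is uncertain. DOHH, the second enzyme, had a log2 change of 0.15 (adjusted p = 0.603 by edgeR). EIF5A lost its call without NS replicate 1 (0.31, edgeR adjusted p = 0.122), NS replicate 3 (0.24, 0.159), shACSS2 replicate 2 (0.28, 0.117) or shACSS2 replicate 3 (0.32, 0.0769), and with library totals (0.23, 0.0712). DHPS lost its call when NS replicate 1 (-1.26, 0.0677), NS replicate 3 (-1.21, 0.0763) or shACSS2 replicate 3 (-1.16, 0.0597) was left out.

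Among transporters, ATP13A3, a P-type ATPase that takes up polyamines, fell. It had 109, 108 and 105 CPM in NS and 78.9, 53.0 and 60.8 CPM in shACSS2, with no overlap (log2 change -0.74 ± 0.124 SE, adjusted p = 0.0012 by edgeR). ATP13A3, at 37.2% GC, had a log2 change of -0.91 without shACSS2 replicate 1 (edgeR adjusted p = 2.7e-06). With the correction for GC content and length it was -0.57 (edgeR adjusted p = 0.000131). The other 5 tested transport genes had log2 fold changes from 0.09 (SLC47A1) to 0.42 (SLC12A8) and did not pass the test, among them the lysosomal polyamine exporter ATP13A2 at 0.11 (edgeR adjusted p = 0.544). Upstream, ARG2, the mitochondrial arginase that supplies ornithine, rose from 19.1 ± 3.00 to 27.3 ± 2.50 CPM (SD over 3 libraries per group, log2 change 0.52 ± 0.133 SE, adjusted p = 0.0155 by edgeR). OAT, which also handles ornithine, had a log2 change of 0.33 (adjusted p = 0.0582 by edgeR). The call of ARG2 ended without NS replicate 1 (0.39, edgeR adjusted p = 0.118) or shACSS2 replicate 2 (0.44, 0.0603).

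MTAP, which recycles the methylthioadenosine that SRM and SMS release, fell. It had 69.9, 69.9 and 72.9 CPM in NS and 52.3, 51.1 and 44.3 CPM in shACSS2 (log2 change -0.53 ± 0.101 SE, adjusted p = 0.00303 by edgeR). With the correction for GC content and length it was -0.33 (adjusted p = 0.00599 by edgeR), and ATP13A3 and MTAP kept their calls under all 18 alternatives. Its partners in salvage, MRI1, APIP, ENOPH1 and ADI1, had log2 fold changes from -0.12 to 0.25 and did not pass the test. Of the enzymes that make S-adenosylmethionine, MAT2A (-0.14) and MAT2B (0.00) did not pass the test either. MAT1A, the liver form, was called at a log2 change of 1.59 ± 0.48 (SE, adjusted p = 0.0326 by edgeR) on 4 to 16 counts per library, and it is named only because the count of 4 rises includes it. Its call ended when any library except shACSS2 replicate 3 was left out, at log2 fold changes of 1.46 to 1.74 and edgeR adjusted p of 0.0772 to 0.131, and with no count filter (1.60, 0.0732).

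**Figure D3:**
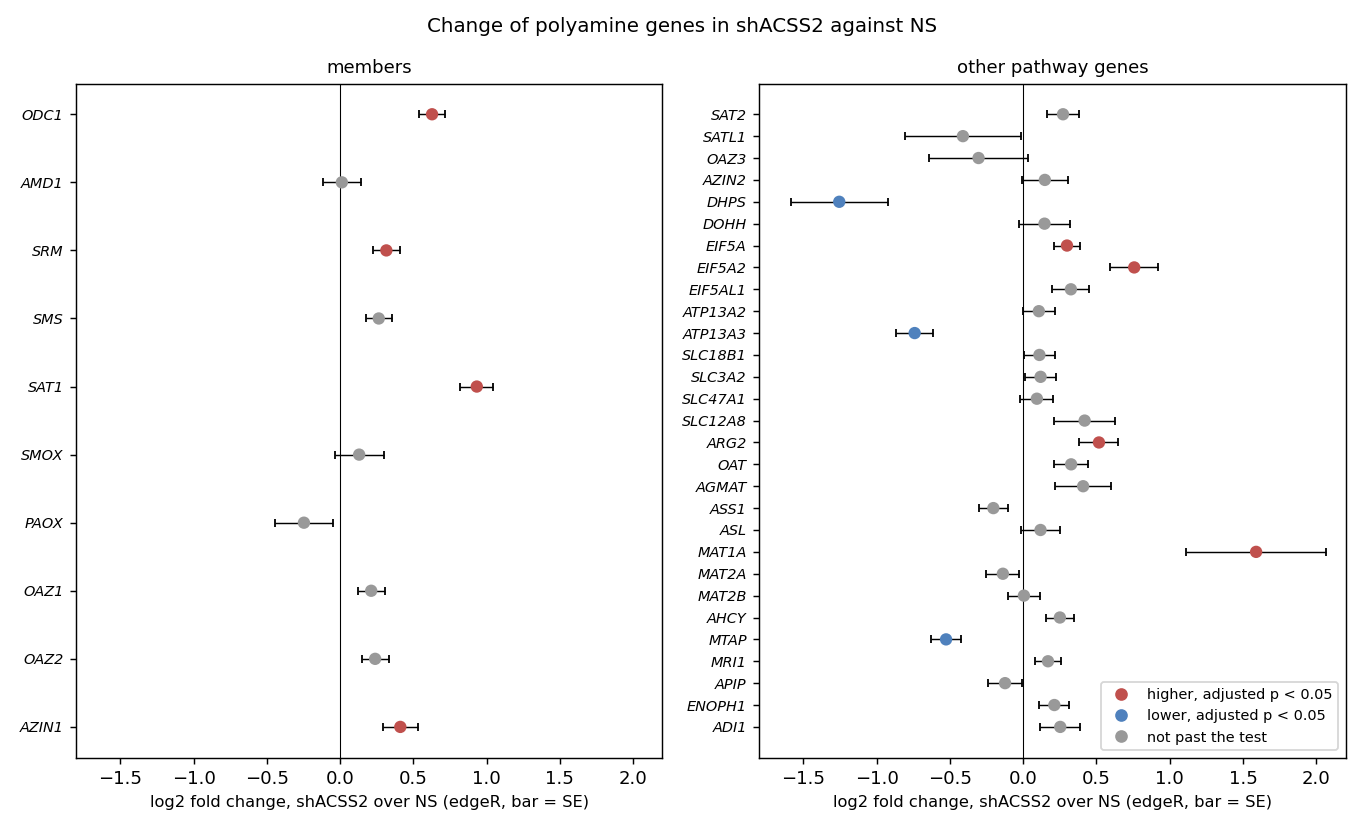
Log2 fold change of shACSS2 over NS (horizontal axis, points, with SE as bars) for the 10 polyamine genes (left) and 29 other tested genes of polyamine metabolism (right). Red and blue points are higher and lower at an edgeR adjusted p under 0.05, and grey points are not past the test. SAT1 at 0.93 and ODC1 at 0.63 are the highest of the left panel, and ATP13A3, MTAP and DHPS are the falls of the right panel.

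Earlier results of these data showed that many genes that fell hold ATGCTCA or TGCTCAA in their annotated 3' end beyond the coding sequence. These sequences were found there in 0 of the 10 members and in 18% of 13263 tested genes with at least 50 such bases. They were in 43.9% of the genes that fell, 6.75% of those that rose and 16% of those not past the test. Among the other tested pathway genes, 5 held them, namely ATP13A3, MTAP, SLC47A1, MAT2B and ENOPH1, of which ATP13A3 and MTAP fell. A longer 3' end has more room for a 7-base sequence, and these shares took no account of length. The 3' ends ran from 276 bases (SRM) to 2210 (AZIN1) in the members. In these 5 genes they ran from 1041 (ENOPH1) to 6452 (MTAP). Whether this sequence has a part in the falls of ATP13A3 and MTAP was not tested.

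Among 11895 tested genes averaging 5 CPM or more, those whose log2 CPM most resembled ODC1 over the 6 libraries were PDIA3 (Pearson r = 0.998), YBX1 (0.998) and TFB1M (0.997). For SAT1 they were PIGB (0.997), SPRYD3 (0.997) and MKRN1 (0.996). The 6 points share their 2 groups and their libraries, so these coefficients describe a shared pattern and carry no p.

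Some members share sequence with other annotated loci. The annotated pseudogenes of ODC1, AMD1 and SRM held at most 8 counts in a library, and antisense or opposite-strand neighbours of OAZ1, OAZ2 and AZIN1 had 0 to 71 counts over all libraries, against 62876, 7465 and 20287 for the members. If strand was not used in counting, reads of such a pair cannot be told apart. OAZ1 and PAOX each overlap a same-strand gene that had 0 counts, and ODC1 holds the small nucleolar RNA gene SNORA80B, with 6 counts over all libraries. How reads common to 2 loci were treated was not stated, so reads that these members may have lost were not measured. The plot of alternatives shows how far each fold change moved.

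**Figure D4:**
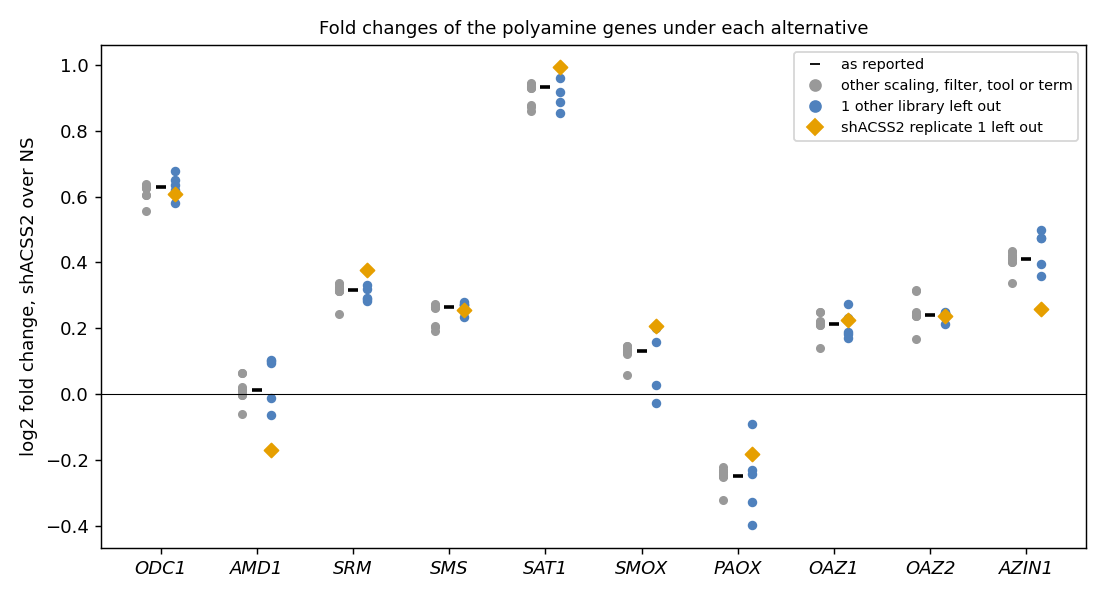
Log2 fold change of shACSS2 over NS (vertical axis) for each polyamine gene as reported (dash), under other scalings, filters, tools or terms (grey), with 1 library left out (blue) and without shACSS2 replicate 1 (orange diamonds). SAT1 and ODC1 stay far above 0, AZIN1 drops from 0.41 to 0.26 and AMD1 from 0.01 to -0.17 without that library.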

How the data were processed

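Counts per gene for 6 libraries were deposited by the authors as whole numbers without normalisation, per the file headers and values. Per the submitters' processing notes, reads were handled with HISAT2 2.0.5, featureCounts 1.5.0-p3, fastp and DESeq2, and the build was hg19. The strand setting and the treatment of shared reads were not stated. All 58735 identifiers were found in GENCODE v29, whose GRCh38 coordinates, exon lengths and transcript sequences were used, and promoters came from RefSeq (GRCh38.p14).

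The quasi-likelihood test of edgeR 4.0.16 was run under R 4.3.3 (TMM factors, default filter by group, robust fit with group as the only term), with Benjamini-Hochberg adjustment over 16210 genes at 0.05. SE is derived from the F statistic of each gene. Pairs of libraries within a group differed beyond sampling noise (chi-square over its degrees of freedom 4.28 to 17.3), so none was taken for a repeat deposit of another; this does not show separate cultures. Alternatives were RLE, upper quartile and library-total scaling, other filters, DESeq2 1.42.0, voom of limma 3.58.1, a threshold of 0.01, omission of each library or of mitochondrial genes, the replicate number as a block, and per-library offsets for GC content and gene length. Named are ACSS2, the members, up to 12 called pathway genes averaging 1 CPM or more, and the 3 likest genes each of ODC1 and SAT1. Likeness used log2(CPM + 0.5). Members and lists were chosen with earlier results of these data known.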

Additional observations from a re-analysis of the deposited data

How the results depend on the processing

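ODC1, SAT1, ACSS2, EIF5A2, ATP13A3 and MTAP kept their direction and their call under all 18 alternatives, with log2 fold changes of 0.56 to 0.68, 0.85 to 0.99, -2.06 to -1.85, 0.55 to 0.88, -0.91 to -0.57 and -0.60 to -0.33. Members called lower numbered 0 throughout. With library totals, the counts over all genes were 734 higher and 2108 lower, against 1213 and 1563. The median log2 fold change was then 0.18 over the members and -0.0702 over all genes, and AMD1 stood at -0.0595. The log2 fold changes of all genes shifted by a median of -0.0727 from those reported. At an adjusted p of 0.01, 2 members and 1 pathway gene were higher, and over all genes 330 were higher and 680 lower. With the GC and length correction these counts were 7 members, 7 pathway genes and 2778 genes higher, and with the replicate block added 7, 7 and 2918. Leaving out 1 library at a time gave 2 to 6 members, 1 to 7 pathway genes and 310 to 1837 genes higher, and 708 to 2094 genes lower. AMD1 then ranged from -0.17 to 0.11 and SMOX from -0.0270 to 0.21, and AMD1 was -0.0007 with voom and -0.0004 with the replicate block. The cause of these shifts was not tested. MAT1A had no value with the 1 CPM filter or an adjusted p in DESeq2.

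No sign was seen that replicate numbers pair the libraries, and 3 libraries per group are too few to decide it. Same-numbered NS and shACSS2 libraries had deviations that correlated at -0.0428, -0.0664 and 0.112, and NS replicate 2 correlated best with shACSS2 replicate 1 (0.158). With the replicate block alone 4 members were higher, and 1283 genes were higher and 1640 lower.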
